A study of Mus musculus with 6 samples.

Results

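Bmp10, which encodes bone morphogenetic protein 10, and 9 genes of the same signalling route (Bmp2, Bmp4, Bmp6, Acvrl1, Bmpr2, Eng, Smad6, Id1 and Id3) were followed in mouse hearts with and without a cardiomyocyte deletion of cyclin C. These 10 genes were taken by symbol from the 24315 rows of an expression table. Bmp10 was selected on its FPKM values in this very comparison, cKO against fl/fl, so its difference is described here without a test. The 9 others were picked for their place in the route, with their values already known. Whole hearts of 6 male mice were sequenced as polyadenylated RNA, all at 6 weeks of age and on a C57Bl6J background. All 6 mice carried floxed alleles of Ccnc, the gene of cyclin C (fl/fl). Of these, 3 had no Cre (fl/fl 1 to 3) and 3 carried aMHC cre (cKO 1 to 3), in which regulatory DNA of the alpha myosin heavy chain gene directs Cre to cardiomyocytes. Cre and the deletion were present together, and no group carried Cre alone.

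Bone morphogenetic proteins are secreted ligands that bring together type I and type II receptors on the cell surface. The receptors phosphorylate SMAD1, SMAD5 and SMAD9, which enter the nucleus with SMAD4 and switch on genes such as Id1, Id3 and Smad6. BMP10 is made by the trabecular myocardium of the embryonic heart and, in adult mice, mainly by the atria, above all the right atrium. It circulates, and with its liver-made relative BMP9 (Gdf2) it binds the endothelial receptor ALK1 (Acvrl1) together with BMPR2 and the co-receptor endoglin (Eng). The comparison asks whether a heart with almost no Bmp10 transcript also differs in other ligands, in the receptors or in the target genes.

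The letters upstream of 2 genes are shown because these genes had the most similar expression profiles, as described below: Bmp10 itself and Hamp, which encodes hepcidin and is a textbook BMP-SMAD target in liver. Each line gives the 250 bases before the gene start, 5′ to 3′, from RefSeq (GRCm38.p6). Capitals mark AGATAA or its reverse complement TTATCT, the letters of a GATA-type site, and GGCGCC, the core of a GC-rich BMP response element.
Bmp10, chr6:87428744-87428993, plus strand: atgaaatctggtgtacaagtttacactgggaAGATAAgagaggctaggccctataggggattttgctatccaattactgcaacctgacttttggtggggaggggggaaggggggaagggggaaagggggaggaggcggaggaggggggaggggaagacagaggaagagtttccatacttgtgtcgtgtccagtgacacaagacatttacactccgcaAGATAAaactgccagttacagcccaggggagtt
Hamp, chr7:30944030-30944279, minus strand: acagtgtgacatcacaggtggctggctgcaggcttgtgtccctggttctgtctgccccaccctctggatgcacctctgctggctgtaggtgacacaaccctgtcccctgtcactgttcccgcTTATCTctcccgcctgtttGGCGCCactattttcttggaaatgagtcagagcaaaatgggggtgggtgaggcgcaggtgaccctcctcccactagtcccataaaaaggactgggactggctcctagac

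The Bmp10 window held AGATAA 2 times, starting 219 and 33 bases before the gene start, and no GGCGCC. The Hamp window held TTATCT once, 128 bases upstream, and GGCGCC once, 109 bases upstream. On either strand AGATAA was found in 9.99% and GGCGCC in 9.59% of all 32851 promoter windows of the same length, and the 2 motifs did not overlap in these 2 windows. Of the 10 genes, 7 had an entry in the promoter table, and among them the Bmpr2 window held the only GGCGCC and the Bmp10 window the only AGATAA matches. GTCT, the short SMAD box, was in 82.9% of all windows, and it occurred 2 times each before Bmp10 and before Hamp. A match describes letters and is not evidence of a bound site.

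Expression was deposited as FPKM, a fragment count scaled to transcript length and library size. Read numbers per library are unknown. From the spacing of the lowest values, relative depth ran from 0.885 to 1.1 with fl/fl 1 set to 1. The lowest value in the table is 0.01 and stands in place of 0. The fl/fl 1 library stood apart in markers of fat and thymus. Ccnc was lower in each cKO library (4.53 to 5.81 FPKM) than in any fl/fl library (7.6 to 10.8 FPKM), without passing the test (log2 difference -0.65, SE 0.15, adjusted p = 0.144), and its row shares a stretch with Tstd3. Differences were tested with limma on log2(FPKM + 1), a scale that understates the change of low genes, with Benjamini-Hochberg adjustment over 12103 genes whose mean FPKM was at least 1. At an adjusted p under 0.05, 0.587% of these genes were called. Groups without overlap, where every cKO value lay on the same side of every fl/fl value, occurred for 20.4% of them.

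Bmp10 was the most abundant BMP ligand of the fl/fl hearts and almost undetected in cKO. Its values were 54.9, 27 and 21.6 FPKM across fl/fl 1 to 3, against 0.01, 0.0757 and 0.429 across cKO 1 to 3. The groups did not overlap, and the lowest fl/fl value was 50.4 times the highest cKO value. In fl/fl hearts Bmp10 held 66.1%, 49.3% and 53.5% of the FPKM summed over 15 BMP and GDF ligands. In cKO 2 and cKO 3 this share was 0.265% and 1.89%, and cKO 1 was listed at the value that stands for 0, so it has no share. Among the fl/fl hearts the first stood well above the others, and without it the log2 difference was -4.44 against -4.83 with all libraries. The authors' deposited table gave Bmp10 group values of 34.5 and 0.168 FPKM with a q-value of 0.164 and did not call it. In the table the row covers chromosome 6, 87378995 to 87384506, and no other row shares that stretch.

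Some atrial genes were also lower in cKO, and others were not. Of 15 tested atrial cardiomyocyte markers, a list without Bmp10, 11 had a negative and 4 a positive log2 difference (median -0.51, against -0.002 over all genes tested). Without overlap were 9 lower and 1 higher marker, 66.7% of the list beside 20.4% of all genes. Sbk2, a muscle kinase gene, fell and was the only one called in limma (log2 difference -1.45, adjusted p = 0.0385). Kcna5, a potassium channel gene, was the 1 marker higher in every cKO library, without a call (log2 difference 0.27, adjusted p = 0.360). The summed FPKM of all 16 listed markers ran from 3964 to 6799 in fl/fl and from 1595 to 4710 in cKO, and no marker of the list was at 0.01 in all libraries. Myl7, the atrial myosin light chain, read 1116, 808 and 682 FPKM across fl/fl 1 to 3, against 323, 57.5 and 64 across cKO 1 to 3. Its lowest fl/fl value was 2.11 times its highest cKO value. Limma did not call Myl7 (adjusted p = 0.0997), while the authors' deposited table did (q = 0.00301). The atrial natriuretic peptide gene Nppa, at 3715, 2436 and 1827 FPKM over the fl/fl hearts, against 3231, 1040 and 2178 over cKO, overlapped between the groups.

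Of the 15 atrial markers, 13 were highest among the cKO libraries in cKO 1, where their median stood at 73% of the fl/fl mean and Bmp10 was at the value that stands for 0. In cKO 2 and cKO 3 the marker medians were 42.8% and 54.7% of the fl/fl mean, and Bmp10 stood at 0.219% and 1.24%. In none of the 3 cKO libraries did any of the 15 markers reach so low a share as Bmp10, the lowest being Myl7 at 6.63% in cKO 2. Bmp10 was selected on these same values, so its place below the markers is a description and not a test. The markers spread widely around their medians, in cKO 2 from 6.63% to 120.3%. The lowest were Myl7, Myl4, Sln and Mybphl, at 6.63% to 8.94% in cKO 2 and 7.37% to 8.93% in cKO 3. In cKO 1 these genes stood at 37.3% to 70.1%. Among the other markers the lowest cKO value was 21.9% (Dkk3 in cKO 3). In units of the cKO 2 value, with relative depth taken into account, Bmp10 stood at 0, 1 and 6.02 in cKO 1 to 3 and at 721, 313 and 256 in fl/fl 1 to 3. How many fragments such a unit holds is not known, and with so few units no order is read among the cKO hearts. The amount of atrium in each sample is not recorded, and its part in the Bmp10 values was not tested. In bulk tissue, fewer cells of a type and less RNA per cell cannot be told apart.

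Markers of tissue outside the heart muscle also differed between libraries, above all in fl/fl 1. The summed FPKM of 10 adipocyte markers was 535 in fl/fl 1, 55.3 and 49.3 in the other fl/fl hearts, and 33.4 to 46.3 in cKO, with 0 of 9 tested markers positive and 0 called in limma. Lymphocyte and thymus markers summed to 89.7 FPKM in fl/fl 1 and to between 2.31 and 5.51 in every other library. Epicardial markers summed to 26.5, 11.7 and 7.24 FPKM across the fl/fl hearts and to between 4.54 and 7.92 in cKO. Lung markers summed to 7.24, 23.2 and 0.764 FPKM across the fl/fl hearts and to between 0.929 and 1.39 in cKO, with Scgb3a2 at 0.01 in all libraries. The lymphocyte, epicardial and lung sums of fl/fl 3 lay in or below the cKO range, and its adipocyte sum lay above it. The part of attached tissue in the Bmp10 and atrial values was not tested.

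**Figure D1:**
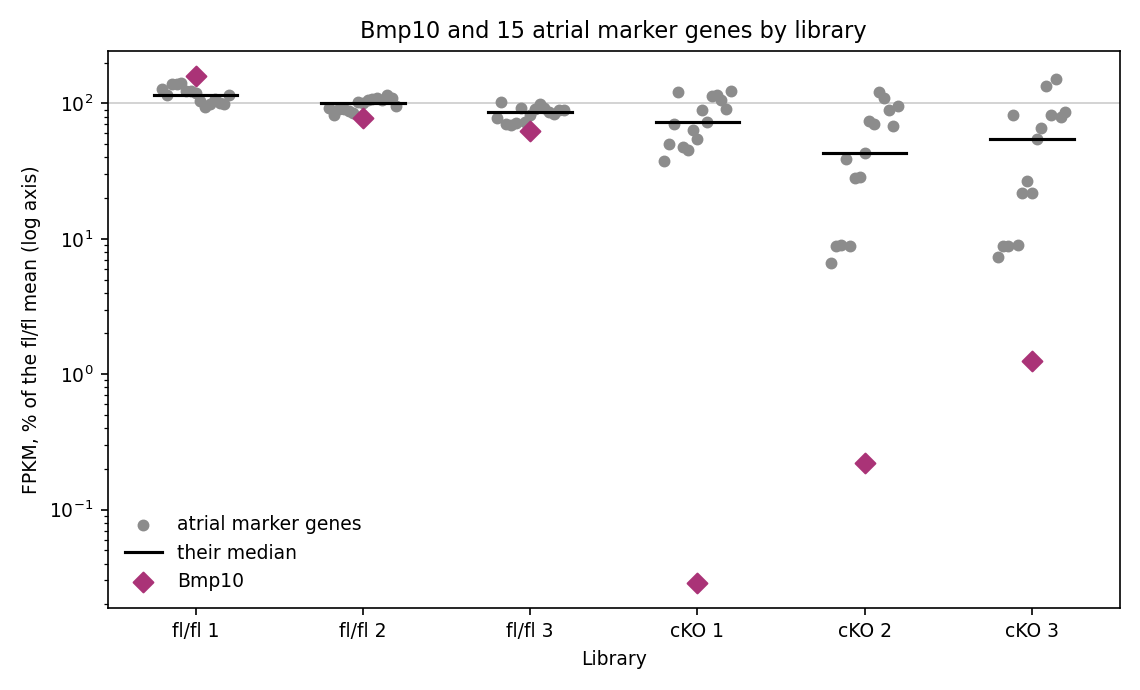
Each gene's FPKM as a percentage of its fl/fl mean (log axis) in the 6 libraries: 15 atrial marker genes (grey points), their median (black line) and Bmp10 (diamonds; in cKO 1 its value stands for 0). The marker medians stay between 42.8% and 73% in cKO, with single markers from 6.63% to 152.1%. Bmp10, selected on these values, stands at 1.24% or less.

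Among all tested genes, Hamp had the profile nearest to that of Bmp10. Likeness was measured as the root mean square difference between log2(FPKM + 1) profiles over the 6 libraries, after each gene's fl/fl mean was subtracted, and it was 0.388 for Hamp. Next came the atrial genes Myl7 (1.59) and Myl4 (1.84), the kinase gene Sbk3 (1.88) and Mybphl (1.89), a myosin-binding protein gene of the atrium. Hamp read 52.5, 62.4 and 26.2 FPKM across fl/fl 1 to 3, against 0.43, 0.47 and 1.37 across cKO 1 to 3, so the lowest fl/fl value was 19.2 times the highest cKO value. The measure of likeness rests mostly on the size of the cKO difference, on which Bmp10 was selected. Among the fl/fl hearts Bmp10 was highest in fl/fl 1 and Hamp in fl/fl 2. Hamp fell in limma (log2 difference -4.73, SE 0.32, adjusted p = 0.000815) and was not called in the authors' deposited table (q = 0.221). Reads of Hamp may also come from Hamp2, a close paralog beside it.

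The other ligands gave no called difference. BMP6, known for its control of hepcidin in the liver, was the next most abundant, and its gene read 14.1, 13.3 and 9.8 FPKM across fl/fl 1 to 3, against 16.9, 15.1 and 12.3 across cKO 1 to 3. The groups overlapped (log2 difference 0.24, SE 0.16, adjusted p = 0.563), with an unadjusted 95% interval from -0.13 to 0.61. Bmp4, a ligand of heart development that acts through the receptor BMPR1A, read 7.25, 8.61 and 4.48 FPKM over the fl/fl hearts, against 8.07, 7.86 and 5.38 over cKO. Its difference was 0.08 (SE 0.23, adjusted p = 0.912), with an interval from -0.44 to 0.60. Leaving out single libraries moved the Bmp6 difference between 0.09 (without fl/fl 3) and 0.36 (without cKO 3). Without fl/fl 3 the sign of Bmp4 turned (-0.15), as it did without cKO 1 (-0.01). Rows of Bmp4 and Gm15217, and of Bmp6 and 4930579J19Rik, share a stretch in the table, so reads may not be fully separable.

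Both ligands were lowest in replicate 3 of each genotype. That replicate also stood apart in clock genes: Arntl, a core activator of the circadian clock, stood at 8.84 FPKM in fl/fl 3, at 13.7 FPKM in cKO 3 and no higher than 1.36 FPKM elsewhere. Over replicates 1 and 2 alone the log2 difference of Bmp6 was 0.21 and that of Bmp4 0.01, neither called. Bmp2, a ligand of endocardial cushion formation in the embryo, lay under the filter with 0.648, 0.676 and 0.995 FPKM over the fl/fl hearts, against 0.931, 0.396 and 0.933 over cKO, and was not tested. The groups overlapped for Bmp2. In all, 11 of the 15 ligands lay under the filter, and no library exceeded 1.23 FPKM for any of them, a value reached by Bmp7 in cKO 2. Gdf2, the gene of BMP9, did not exceed 0.0602 FPKM in any library. The ligands other than Bmp10 summed to 28.1, 27.8 and 18.8 FPKM in fl/fl 1 to 3 and to 31.3, 28.4 and 22.2 FPKM in cKO 1 to 3, ranges that overlapped.

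**Figure D2:**
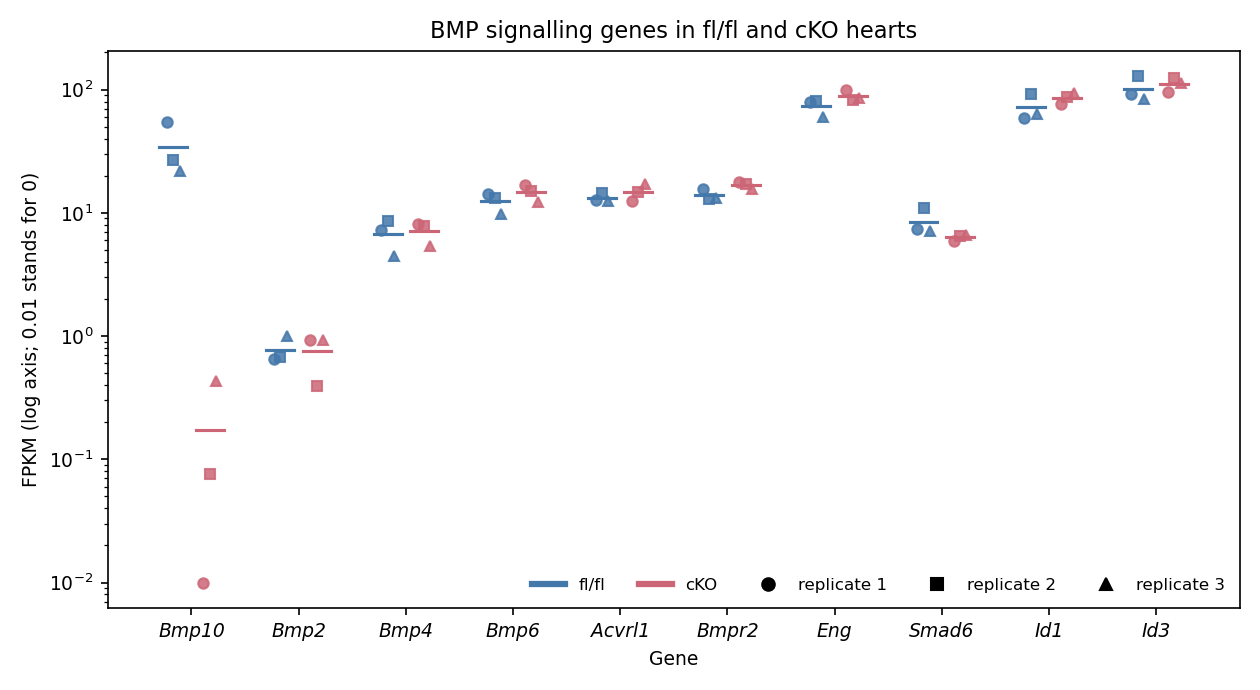
FPKM of the 10 genes in each library (log axis; points are libraries, shaped by replicate number; lines are group means of 3). Bmp10 lies between 21.6 and 54.9 FPKM in fl/fl and at 0.429 FPKM or less in cKO, while fl/fl and cKO values of the other 9 genes lie close together.

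Of the 8 other genes that were tested, limma called 0, against 0.587% of all genes, with 1 at an unadjusted p under 0.05 (Bmpr2). The authors' deposited table tested the same 8 genes and called 0, where it called 3.77% of all genes it tested, with 1 of the 8 at an unadjusted p under 0.05 (Smad6). A missed threshold does not show that levels were equal. For 3 of the 8 genes (37.5%) the groups did not overlap, against 20.4% of all genes (10.1% higher and 10.3% lower in cKO): Bmpr2 and Eng were higher and Smad6 was lower.

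The receptors of the BMP10 route gave no called difference. Endoglin, the co-receptor, had the highest level of the 3, with Eng at 79.6, 81.2 and 60.4 FPKM across fl/fl 1 to 3, against 99.4, 83 and 84.7 across cKO 1 to 3. All cKO values lay above all fl/fl values, by a margin of 83 against 81.2 FPKM at the closest, and the difference of 0.28 (SE 0.14, 95% interval -0.04 to 0.59) was not called (adjusted p = 0.435). It was 0.14 without fl/fl 3, the lowest library. Bmpr2, the type II receptor, read 15.5, 13 and 13.3 FPKM over the fl/fl hearts, against 17.9, 17.1 and 15.6 over cKO. These groups touched without overlapping, and the difference of 0.26 (SE 0.10, interval 0.02 to 0.50) did not pass (adjusted p = 0.369). Acvrl1, the type I receptor ALK1, overlapped between the groups at 12.6, 14.5 and 12.4 FPKM over the fl/fl hearts, against 12.5, 14.6 and 17 over cKO (difference 0.14, SE 0.13, interval -0.15 to 0.43, adjusted p = 0.674). Its difference was 0.04 without cKO 3, 0.25 without cKO 1 and -0.002 over replicates 1 and 2 alone. The Eng row shares a stretch with Fpgs, Mir1954 and Mir8093.

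Endothelial marker genes, which mark the cells where ALK1 and endoglin are mainly found, were mostly positive as well. Of 20 endothelial markers 19 had a positive log2 difference (median 0.26). Limma called 0, beside 0.587% of all genes (lowest adjusted p = 0.208). Without overlap were 9, all higher in cKO, 45% of the list beside 20.4% of all genes (10.1% higher). Their mean log2(FPKM + 1) was 5.39, 5.38 and 5.34 in fl/fl 1 to 3 and 5.54, 5.56 and 5.81 in cKO 1 to 3. Their summed FPKM ran from 1976 to 2841 in fl/fl and from 2501 to 3069 in cKO, and no marker was at 0.01 in all libraries. The sum was dominated by Fabp4, a fatty acid carrier of capillary endothelium and also of fat cells. Fabp4 read 1065 to 1807 FPKM over the fl/fl hearts, against 1411 to 1794 over cKO. The part of the fat in fl/fl 1 in this sum was not tested. Fibroblast markers were positive for 12 of 12 (median 0.25), with summed FPKM from 1857 to 2085 in fl/fl and from 2105 to 2360 in cKO. Of 14 genes listed as ventricular 12 had a negative difference (median -0.60). Limma called 2 as lower (14.3%, beside 0.587% of all genes): Mb, the myoglobin gene, and Ryr2, the calcium release channel gene. Without overlap were 8, all lower, 57.1% of the list beside 20.4% of all genes. The list includes general cardiomyocyte genes such as Mb and Ryr2. Its transcription factor genes Irx4 and Hey2 differed little (-0.03 and 0.07, adjusted p = 0.935 and 0.913). The part of the marker shifts in the Eng, Bmpr2 and Acvrl1 values was not tested.

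**Figure D3:**
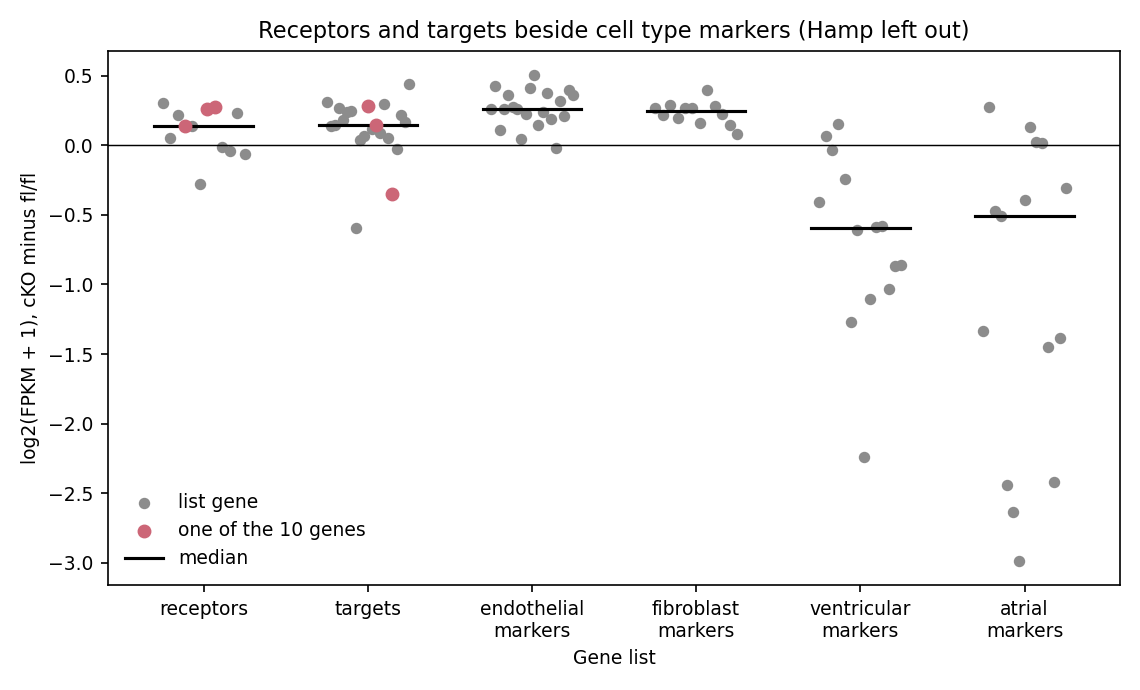
Difference in log2(FPKM + 1), cKO minus fl/fl, for tested receptor and target genes beside markers of 4 cell types (points are genes, red points are among the 10 genes, lines are medians; Hamp is left out for scale). Receptors (median 0.14) run from -0.28 to 0.31, endothelial markers (median 0.26) from -0.02 to 0.51 and fibroblast markers (median 0.25) from 0.08 to 0.40. The medians of the atrial (-0.51) and ventricular (-0.60) lists lie lower, and the ventricular list includes general cardiomyocyte genes.

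The target genes Id1 and Id3 gave no called difference. Id1 and Id3 encode inhibitors of DNA binding, helix-loop-helix proteins without a DNA-binding part whose genes are direct SMAD1/5 targets. Id1 read 58.6, 92.7 and 63.8 FPKM across fl/fl 1 to 3, against 76.8, 86.7 and 94 across cKO 1 to 3. The groups overlapped through fl/fl 2, and the difference was 0.28 (SE 0.17, interval -0.12 to 0.68, adjusted p = 0.527). Id3 read 91.3, 128.7 and 84.2 FPKM over the fl/fl hearts, against 95, 124 and 114 over cKO, again with fl/fl 2 highest. Its difference was 0.15 (SE 0.17, interval -0.25 to 0.55, adjusted p = 0.760). With single libraries left out, the Id1 difference ran from 0.15 (without fl/fl 1) to 0.48 (without fl/fl 2). That of Id3 ran from 0.03 (without fl/fl 3) to 0.33 (without fl/fl 2), and none of these was called.

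Smad6, an inhibitory SMAD that BMP signalling induces and that dampens the pathway, had the opposite sign. It read 7.39, 11 and 7.09 FPKM across fl/fl 1 to 3, against 5.86, 6.54 and 6.64 across cKO 1 to 3. Each cKO value lay below each fl/fl value, with 7.09 and 6.64 FPKM as the nearest pair. The difference was -0.35 (SE 0.16, interval -0.72 to 0.02) and was not called (adjusted p = 0.413), nor in the authors' deposited table (q = 0.270). Without fl/fl 2 the difference was -0.17.

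By level, the genes kept almost the same order in both genotypes once Bmp10 is set aside. In fl/fl hearts mean FPKM fell in the order Id3 (101.4), Eng (73.7), Id1 (71.7), Bmp10 (34.5), Bmpr2 (13.9), Acvrl1 (13.2), Bmp6 (12.4), Smad6 (8.5), Bmp4 (6.78) and Bmp2 (0.773). The ranges over the 3 hearts overlapped for Eng and Id1 and for each neighbouring pair from Bmpr2 to Bmp4, so those neighbours do not differ beyond their spread. In cKO hearts the order was Id3 (111), Eng (89), Id1 (85.8), Bmpr2 (16.9), Bmp6 (14.8), Acvrl1 (14.7), Bmp4 (7.1), Smad6 (6.35), Bmp2 (0.753) and last Bmp10, at no more than 0.429 FPKM in any library. There, gaps between the ranges of neighbours separated Id1 from Bmpr2, Acvrl1 from Bmp4, and Smad6 from Bmp2.

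The wider BMP pathway was read from lists of ligands, receptors, SMADs, targets, antagonists and processing proteases, 82 genes in all. Of the 55 tested genes other than Bmp10, 1 fell (Hamp), 0 rose and 54 were not called, a share of 1.82% beside 0.587% of all tested genes called (0.223% lower and 0.364% higher). This share rests on Hamp alone. The lists were chosen with earlier results of these data known, so the share is a description and not a test. Without overlap were 10 higher and 4 lower genes, 25.5% of the list beside 20.4% of all genes. The median log2 difference was 0.09 against -0.002 over all genes. The authors' deposited table, which called 3.77% of all genes it tested, called 2 of 61 tested pathway genes. These were Gja5, the gap junction gene connexin 40 of atrial muscle and arterial endothelium, which was lower, and Unc5b, an endothelial guidance receptor, which was higher.

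Among the 12 tested receptors and co-receptors limma called 0, with 3 at an unadjusted p under 0.05. Without overlap 5 were higher and 1 lower in cKO, 50% of the list beside 20.4% of all genes. The most abundant of the 12 was Hfe2, the BMP co-receptor hemojuvelin, at 162.2 ± 27.2 FPKM over the fl/fl hearts, against 159.3 ± 11.4 over cKO (SD, n = 3). Bmpr1a, the type I receptor through which BMP2 and BMP4 act, read 31.2, 28.5 and 33.9 FPKM over the fl/fl hearts, against 25.7, 25.6 and 25.2 over cKO. All cKO values of Bmpr1a lay below all fl/fl values, without a call (difference -0.28, SE 0.09, adjusted p = 0.283). Acvr1, the type I receptor ALK2, had the opposite sign at 7.47, 6.98 and 7.35 FPKM over the fl/fl hearts, against 9.1, 8.18 and 10.5 over cKO (difference 0.31, SE 0.11, adjusted p = 0.319).

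The SMADs showed no called difference among 7 tested genes, and 0 had an unadjusted p under 0.05 in limma. Smad4, the common partner, stood at 21.1 ± 1.97 FPKM over the fl/fl hearts, against 21.6 ± 0.591 over cKO (SD, n = 3). The ubiquitin ligase gene Smurf2, whose product degrades SMADs and receptors, stood at 13.8 ± 2.81 and 14.3 ± 0.655 FPKM. Smurf1 was at 10.9 ± 0.55 FPKM over the fl/fl hearts, against 12.5 ± 0.8 over cKO, with no overlap and no call (adjusted p = 0.460).

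Of 22 tested target genes Hamp was the 1 called. Gja5 had the next largest difference, at 5.51, 5.1 and 7.44 FPKM over the fl/fl hearts, against 4.24, 3.03 and 3.63 over cKO. All cKO values lay below all fl/fl values (difference -0.59, SE 0.16), with no call in limma (adjusted p = 0.213) and a call in the authors' deposited table (q = 0.0244). Embryonic mouse hearts without Bmp10 are known for raised Cdkn1c, a cell cycle inhibitor, and lowered Nkx2-5 and Mef2c, both cardiac transcription factors. In these 6-week hearts Cdkn1c read 18.4 ± 5.39 FPKM over the fl/fl hearts, against 20 ± 1.56 over cKO (SD, n = 3). Nkx2-5 read 52.5 ± 6.89 and 54.3 ± 2.69 FPKM, and Mef2c 16.3 ± 1.3 and 17.4 ± 0.861 FPKM. None of these 3 was called, with adjusted p-values from 0.723 to 0.868.

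Among 9 tested antagonists limma called 0, with 2 at an unadjusted p under 0.05. Crim1, a transmembrane protein with cysteine-rich repeats that binds BMPs and limits their release, read 13.3, 11.2 and 10.4 FPKM over the fl/fl hearts, against 18.4, 18.6 and 15.9 over cKO. The groups lay well apart (difference 0.57, SE 0.12), yet the gene did not pass (adjusted p = 0.109). It was called when the division between replicate 3 and the others was a term (adjusted p = 0.0417), and its row shares a stretch with Fez2. Sost, which encodes the BMP and Wnt antagonist sclerostin, read 4.97, 4.44 and 2.5 FPKM over the fl/fl hearts, against 2.47, 2.02 and 2.58 over cKO, overlapping through fl/fl 3 (adjusted p = 0.360). Twsg1, a cofactor of BMP antagonists, stood at 39.4 ± 3.75 and 39.3 ± 1.29 FPKM, and the secreted glycoprotein gene Fstl1 at 55.5 ± 10.9 and 71.1 ± 10.6 FPKM (adjusted p = 0.416 for Fstl1).

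BMP precursors are cut by proprotein convertases, and of 5 tested processing genes 0 were called in limma, with 2 at an unadjusted p under 0.05. Furin stood at 28.4 ± 4.29 FPKM over the fl/fl hearts, against 30 ± 0.786 over cKO, and Pcsk6 at 26.8 ± 4.37 and 33 ± 2.11 FPKM (SD, n = 3; adjusted p = 0.792 and 0.384). Bmp1, which despite its name encodes a metalloprotease that cleaves procollagen and chordin, read 14.6, 14.3 and 16.5 FPKM over the fl/fl hearts, against 17.3, 18.2 and 19.9 over cKO. The groups did not overlap, without a call (difference 0.27, SE 0.10, adjusted p = 0.320).

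**Figure D4:**
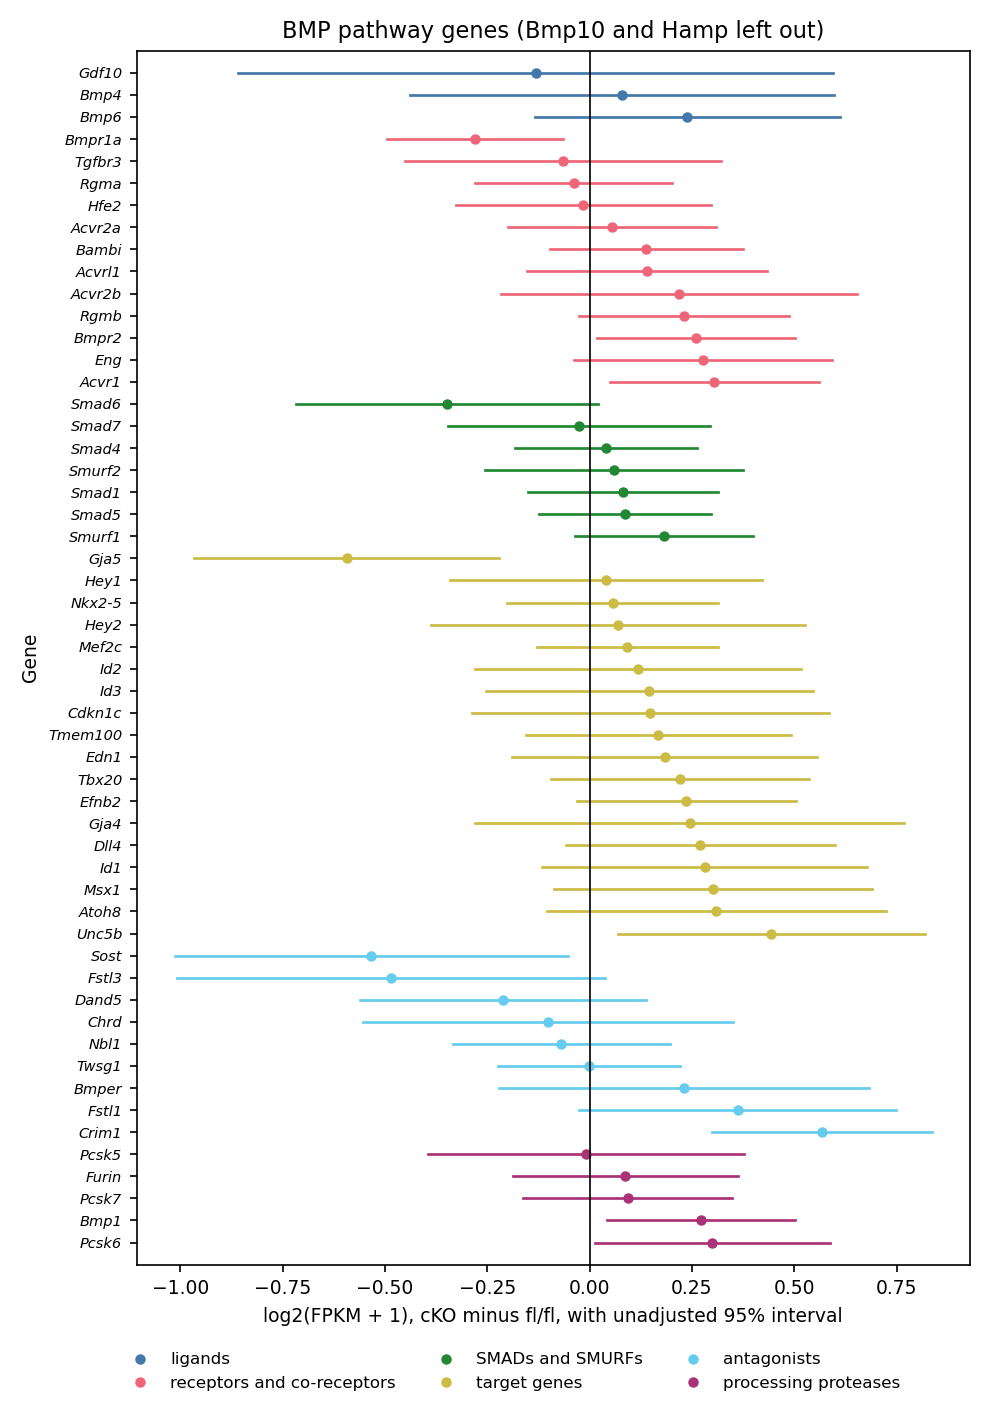
Difference in log2(FPKM + 1), cKO minus fl/fl, with unadjusted 95% intervals from limma for the tested BMP pathway genes, coloured by role (Bmp10 and Hamp left out for scale; genes on several lists are drawn once). Points run from -0.59 (Gja5) to 0.57 (Crim1), and most intervals include 0.

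Genes tied to Bmp10 in cardiomyocytes were read as well, and 0 of 6 tested were called in limma, with 3 at an unadjusted p under 0.05. Tcap, the Z disc protein telethonin, to which BMP10 has been reported to bind, read 2865, 3956 and 1693 FPKM across fl/fl 1 to 3, against 1632, 1692 and 723 across cKO 1 to 3. The nearest fl/fl and cKO values of Tcap were almost equal (difference -1.09, SE 0.40, adjusted p = 0.319), and replicate 3 was lowest in both genotypes. With the replicate 3 division as a term Tcap was called (adjusted p = 0.0399), as it was in the authors' deposited table (q = 0.00301). The transcription factor gene Tbx5 read 11, 12.2 and 9.94 FPKM over the fl/fl hearts, against 10, 7.51 and 8.84 over cKO, overlapping (adjusted p = 0.386). Gata4 stood at 39.4 ± 7.15 FPKM over the fl/fl hearts, against 44.2 ± 4.74 over cKO (SD, n = 3; adjusted p = 0.648).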

How the data were processed

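Per the labels' protocols, RNA was extracted with Trizol from hearts frozen on dry ice, 1 heart per library, and TruSeq libraries were made. The design text calls them stranded, which the named kit is not, so reads of overlapping genes may be mixed. The submitters' processing notes list TopHat (1.0.0), Cufflinks and Cuffdiff. The authors deposited FPKM per gene and library, and a table of group FPKM in which each gene has a p-value and a q-value. The notes name mm10, but the row of Bmp10 starts elsewhere than its GRCm38.p6 gene, so the build of the table's coordinates is not settled. They are printed as the files give them, apart from the promoter coordinates.

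Rows with dates for names (27) were kept unnamed, and 1 row with a failed value was left out. The test was limma (version 3.58.1, R 4.3.3) applied to log2(FPKM + 1), with an intensity trend, two-sided, over 6 libraries with genotype as the only term. The script was tested on simulated data.

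The 10 genes and all lists were chosen with earlier results of these data known. Per pathway list, called genes, the 2 most abundant and the 2 with the largest difference were named, and the 5 genes most like Bmp10. Gdf2, Bmp7, Unc5b, Cdkn1c, Nkx2-5, Mef2c, Kcna5, Sln, Dkk3, Ryr2, Irx4, Hey2 and Tgfb1 were named after their values were seen. Bmp10 was left out of pathway counts. No pair of libraries was closer than 0.252 (root mean square log2 difference), so none is a duplicate. Plots come from matplotlib 3.10.9 under Python 3.11.15.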

Additional observations from a re-analysis of the deposited data

How the results depend on the processing

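The count of called genes, 71, was 14 with no filter on the mean FPKM, 38 with no intensity trend, 123 with the replicate 3 division as a term and 13 in replicates 1 and 2 only, and it ran from 13 to 50 when single libraries were left out (leaving out fl/fl 2 gave 18, fl/fl 3 gave 33, cKO 1 gave 33, cKO 2 gave 13, and cKO 3 gave 26). With the replicate number as a block it was 213. The labels do not say whether the numbers pair the hearts, and the main fit did not pair them. Deviations of same-numbered libraries correlated at 0.089, 0.271 and 0.429, and those of the other pairs at -0.333 to 0.152. For each fl/fl library the same-numbered cKO library correlated highest, so structure shared by number is possible, and the main fit leaves it out. Of the BMP pathway genes, Hamp was called under all 17 alternatives, and 2 were called (Hamp and Crim1) with the replicate block and with the replicate 3 division as a term. The block also called Tcap (adjusted p = 0.0170) beside Crim1 (0.0315). None of the other 8 tested genes of the 10 was called under any alternative. For Bmp10 the log2 difference of -4.83 was -7.20 with a pseudocount of 0.1 and -2.84 with a pseudocount of 5, and it ran from -5.09 to -4.44 with single libraries left out.

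Signs turned only for small differences that were never called. Acvrl1 was at -0.0019 in replicates 1 and 2 only, as were Smad4 (-0.033), Furin (-0.053), Tgfbr2 (-0.0013) and Twsg1 (0.049). Quantile normalization turned Hfe2 (0.066) and Twsg1 (0.040), median scaling turned Hfe2 (0.0029) and Twsg1 (0.016), and array weights turned Hfe2 (0.024) and Gdf10 (0.066). With single libraries left out, ranges were -0.154 to 0.251 for Bmp4, -0.444 to 0.124 for Gdf10, -0.134 to 0.107 for Hfe2, -0.023 to 0.105 for Smad4, -0.026 to 0.211 for Smurf2, -0.044 to 0.074 for Twsg1 and -0.033 to 0.179 for Furin. The causes were not tested. The number of fragments behind the low Bmp10 values is not known.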

Other observations

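Genes of the related TGF-beta and activin branch, which signals through SMAD2 and SMAD3, gave 0 calls in limma among 16 tested, with 4 at an unadjusted p under 0.05, beside 0.587% of all genes called. Of these 16 genes 13 had a positive log2 difference (median 0.14). Without overlap 4 were higher and 1 lower in cKO, 31.25% of the list beside 20.4% of all genes (10.1% higher and 10.3% lower). Ltbp4, which encodes a matrix protein that holds latent TGF-beta, read 106, 102.4 and 82.8 FPKM across fl/fl 1 to 3, against 129, 119.4 and 131.7 across cKO 1 to 3 (difference 0.39, SE 0.12, adjusted p = 0.248). Gdf15, a stress-induced hormone gene of the same superfamily, read 0.872, 1.42 and 0.962 FPKM over the fl/fl hearts, against 6.79, 1.64 and 3.19 over cKO. All cKO values of Gdf15 lay above all fl/fl values, though those of cKO spread over a wide range, and limma did not call it (adjusted p = 0.274) while the authors' deposited table did (q = 0.0371). Tgfb1 read 15.8, 15.1 and 15.2 FPKM over the fl/fl hearts, against 17.6, 17.4 and 22.2 over cKO (adjusted p = 0.360), and the receptor gene Tgfbr2 stood at 19.8 ± 2.16 and 21.2 ± 1.93 FPKM (SD, n = 3; adjusted p = 0.774).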
